A study of Mus musculus with 4 samples.

Results

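The genes described here make the glutathione, thioredoxin and peroxide defence of the cell, and comprise 59 of the 25413 genes in the deposited count table. Members were chosen by symbol, with earlier results of these data known. They are the glutathione transferase genes (Gsta, Gstk, Gstm, Gsto, Gstp, Gstt, Gstz and Mgst), the glutathione peroxidases (Gpx), peroxiredoxins (Prdx), thioredoxin reductases (Txnrd) and superoxide dismutases (Sod), and Gclc, Gclm, Gss, Gsr, Txn1, Txn2, Srxn1, Cat, Slc7a11, Nfe2l2, Keap1 and Osgin1. RNA with polyA tails was sequenced from EpH4, an established mouse mammary epithelial cell line with the genotype WT, grown in 2D culture. The 2 control libraries came from untreated cells and the 2 PM2.5 libraries from cells exposed to PM2.5, fine particles carried in air, so the comparison asks how the defence transcripts differ after particle exposure. Neither particle dose nor exposure time is in the labels, which put all 4 libraries in 1 batch. Nor is it stated whether replicates were separate cultures, so the p-values rest on a spread between samples that could be technical. All cells were of 1 line, which limits what the groups can stand for.

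Glutathione is a small thiol peptide that the cell builds from cysteine and uses in reduced form to destroy peroxides and to tag reactive chemicals for export. Glutathione peroxidases and peroxiredoxins reduce peroxides, thioredoxin and its reductase recharge the peroxiredoxins with electrons from NADPH, and superoxide dismutases make the peroxide that these enzymes and catalase then remove. Many of the genes are known targets of NRF2, a transcription factor that its partner KEAP1 marks for destruction until electrophiles or oxidants modify KEAP1. In mammary epithelium, as in other epithelia, this system is known for handling foreign chemicals and the by-products of respiration.

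NRF2 binds with a small MAF partner at the antioxidant response element, whose core was searched as TGACNNNGC on both strands in RefSeq promoter windows on GRCm38.p6, from 250 bases before to 50 bases after each start. Of the 59 members, 51 were matched by symbol, with 65 windows in all, and Gstt2, Gsta4, Gsta5, Gsr, Gclc, Prdx6, Sod3 and Gsta13 had no entry. The core was present in 10 of the 65 windows (15.4%), 1 for each of 10 genes, against 12.4% of all 32851 windows. The 6 stretches that follow are shown because they hold the core upstream of the start of genes that rose, fell or did neither. Capitals mark the core, which reads GCNNNGTCA where it lies on the other strand. They lie at chr2:75704869-75704913 (minus strand) for Nfe2l2, chr10:82859088-82859148 for Txnrd1, chr4:116685440-116685500 for Prdx1, chr16:90220680-90220740 for Sod1, chr3:122245397-122245457 for Gclm and chr6:138140445-138140505 for Mgst1, the last 5 on the plus strand.
Nfe2l2: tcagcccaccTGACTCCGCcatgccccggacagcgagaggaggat
Txnrd1: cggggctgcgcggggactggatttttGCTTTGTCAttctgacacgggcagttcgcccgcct
Prdx1: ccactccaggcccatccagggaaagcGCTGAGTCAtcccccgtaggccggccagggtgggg
Sod1: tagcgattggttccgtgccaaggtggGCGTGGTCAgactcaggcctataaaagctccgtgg
Gclm: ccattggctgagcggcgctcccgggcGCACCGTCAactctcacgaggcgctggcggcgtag
Mgst1: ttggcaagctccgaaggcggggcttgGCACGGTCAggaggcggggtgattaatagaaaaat

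The 250 bases upstream of 3 members with large changes are shown next, since Gstm5 holds the core and Mgst2 and Sod2 do not. Capitals again mark the core. They lie at chr3:107895604-107895853 for Gstm5, chr3:51660929-51661178 for Mgst2 and chr17:13007589-13007838 for Sod2, all on the plus strand of GRCm38.p6. A match is a description of letters and not a binding site, and a window without one says nothing about binding elsewhere.
Gstm5: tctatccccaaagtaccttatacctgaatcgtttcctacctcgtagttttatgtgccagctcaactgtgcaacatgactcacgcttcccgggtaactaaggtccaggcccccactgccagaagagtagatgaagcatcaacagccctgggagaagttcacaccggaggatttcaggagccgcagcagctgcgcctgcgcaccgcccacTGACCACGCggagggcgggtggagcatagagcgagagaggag
Mgst2: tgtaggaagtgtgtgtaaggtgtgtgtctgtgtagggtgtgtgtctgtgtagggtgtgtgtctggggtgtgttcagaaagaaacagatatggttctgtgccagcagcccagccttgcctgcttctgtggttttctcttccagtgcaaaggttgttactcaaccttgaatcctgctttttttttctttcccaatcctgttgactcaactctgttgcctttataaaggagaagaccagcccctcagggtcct
Sod2: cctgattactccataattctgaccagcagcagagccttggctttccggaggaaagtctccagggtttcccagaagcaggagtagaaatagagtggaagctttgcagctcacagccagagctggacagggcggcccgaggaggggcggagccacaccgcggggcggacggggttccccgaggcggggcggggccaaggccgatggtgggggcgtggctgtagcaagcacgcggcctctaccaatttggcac

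Total raw counts per library were 19562930 and 26206329 in the controls and 20232277 and 18548478 after PM2.5. Levels are given as CPM, which are counts scaled to library size and by edgeR's TMM factors, and a count of 3 equals 0.116 to 0.158 CPM. The labelled cell type was checked against 18 epithelial markers. Of these, 16 averaged below 1 CPM and 6 had 0 counts throughout (Epcam, Krt5, Krt18, Krt19, Cldn4, Esrp1). Their summed level, 249 and 245 CPM in the controls and 239.7 and 254 CPM after PM2.5, came almost wholly from Tjp1 and Krt14. These moved in opposite directions: Krt14, a basal keratin, had 53.1 and 51.0 CPM in the controls and 20.7 and 18.6 CPM after PM2.5 (log2 fold change -1.40, adjusted p = 1.453e-06), and Tjp1 rose from 196 and 194 CPM to 217 and 233 CPM (0.21, adjusted p = 0.0147), a call lost without PM2.5 replicate 2 (0.16, adjusted p = 0.189) and when set against the genes next to it on the chromosome (0.15, adjusted p = 0.0702). The 15 fibroblast and mesenchymal markers, Vim, Fn1 and Col1a2 among them, summed to 9118 and 9790.4 CPM in the controls and 6823 and 7476 CPM after PM2.5, so the profile does not show the defining epithelial transcripts of the label. The 12 immune markers summed to 10.1 and 10.9 CPM in the controls and 18.6 and 19.9 CPM after PM2.5, with Itgam, Cd3e and Ms4a1 at 0, and the 7 endothelial markers to between 0.659 and 1.37 CPM. Within the lists the markers did not all move alike. Of 13 mesenchymal markers tested 3 were higher and 6 lower, and of 4 immune markers tested 2 were higher and 0 lower. Of 3 epithelial markers tested 2 were higher and 1 lower, and over all 12478 genes tested 19.2% were higher and 20.4% lower. The summed mesenchymal and immune levels and the epithelial marker Krt14 thus moved with the groups, and their part in the results that follow was not tested. In bulk RNA, fewer cells of a type and less RNA per cell cannot be told apart.

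Expression of 46 of the 59 members was high enough to test. After PM2.5, 10 were higher and 11 were lower by edgeR's quasi-likelihood test at a Benjamini-Hochberg adjusted p below 0.05, and 25 did not pass. Over all 12478 genes tested, 19.2% were called higher and 20.4% lower, so the members' shares lie near those of the whole transcriptome. The median log2 fold change was 0.05 for the members and 0.006 for all genes tested. With no scaling beyond library size, 15 members were higher and 10 lower, against 24.8% and 15.1% of all genes. By DESeq2 8 were higher and 9 lower, against 12.7% and 15.5%. Of the 21 members called, 4 changed more than 2-fold (Gstm5, Mgst2, Gstt4 and Gsto2) and 13 less than 1.5-fold, and their median change was 0.46 log2 units in either direction, against 0.40 for all 4939 genes called. The 59 members together made up 4145 and 4167 CPM in the controls and 3874 and 3796 CPM after PM2.5.

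**Figure D1:**
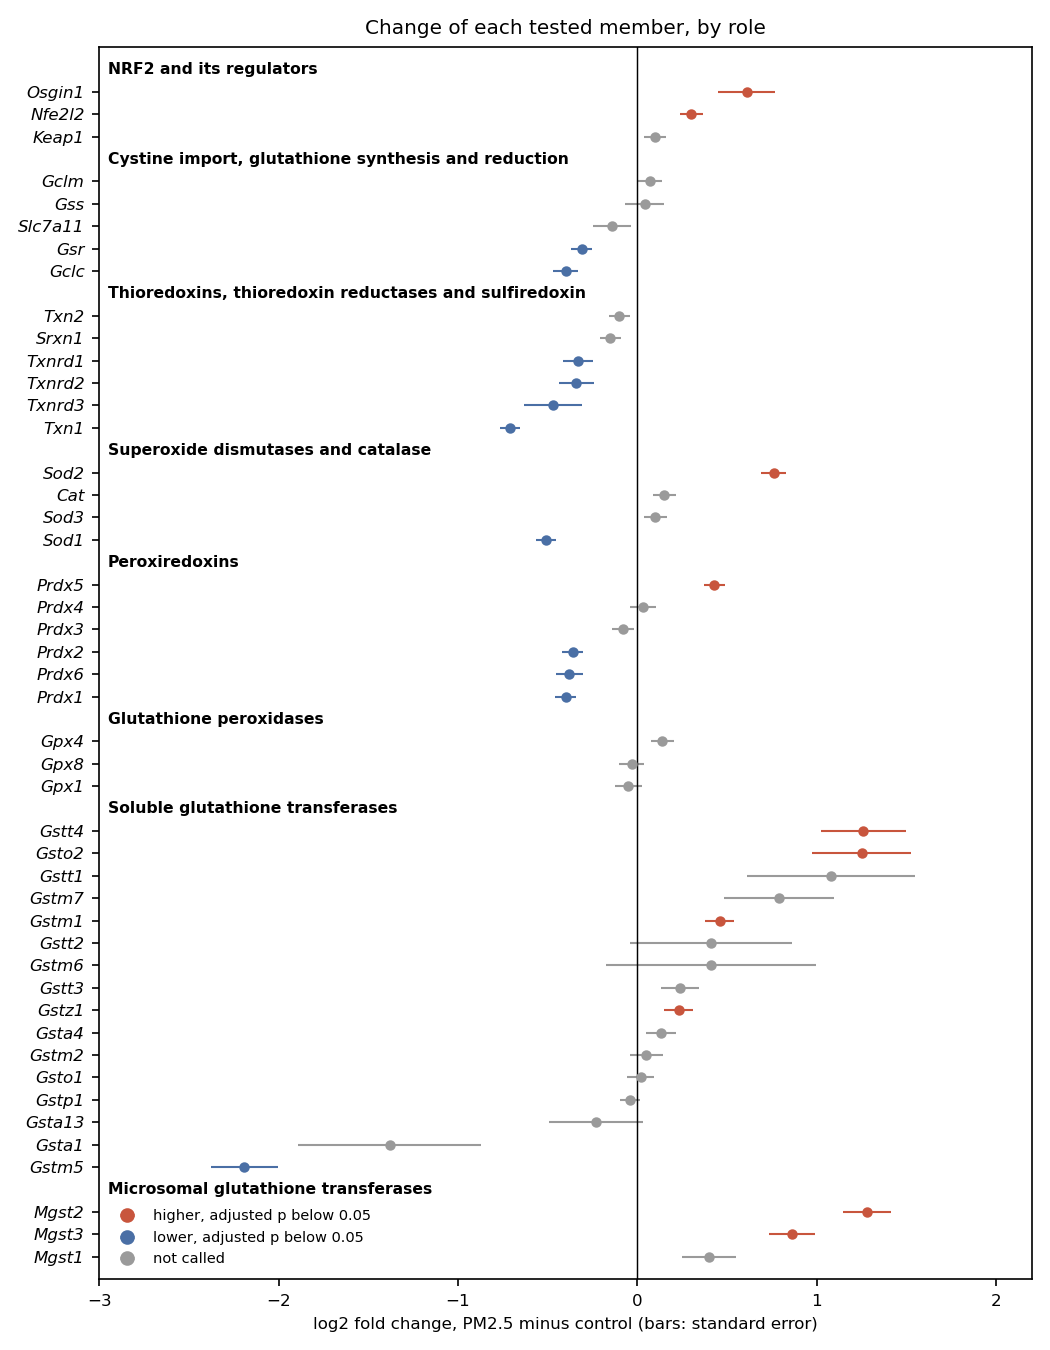
Log2 fold change of PM2.5 minus control (horizontal axis) for the 46 tested members, grouped by role, with bars of 1 standard error; red marks the 10 higher and blue the 11 lower members, grey those not called. All 6 thioredoxin system genes lie left of 0 and 4 of them are called, while the 3 microsomal transferases lie right of 0. Over all genes tested 19.2% were called higher and 20.4% lower, and no group was tested as a set.

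Per length, as the authors' RPKM, the most abundant members were Txn1, the cytosolic thioredoxin, then Sod1, Gstp1, Gpx4, Prdx1 and Gsto1. Txn1 stood at a mean of 483 RPKM in the controls and 299 after PM2.5, and Sod1 at 263 and 188. Gstp1, the pi class transferase, stood at 212 and 209.6 RPKM, Gpx4 at 155 and 174, Prdx1 at 149 and 114 and Gsto1 at 87.8 and 90.1. Gpx4 therefore lay above Prdx1 in both groups, and after PM2.5 its level approached that of Sod1. At the other end, 16 of the 59 members averaged below 1 CPM.

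**Figure D2:**
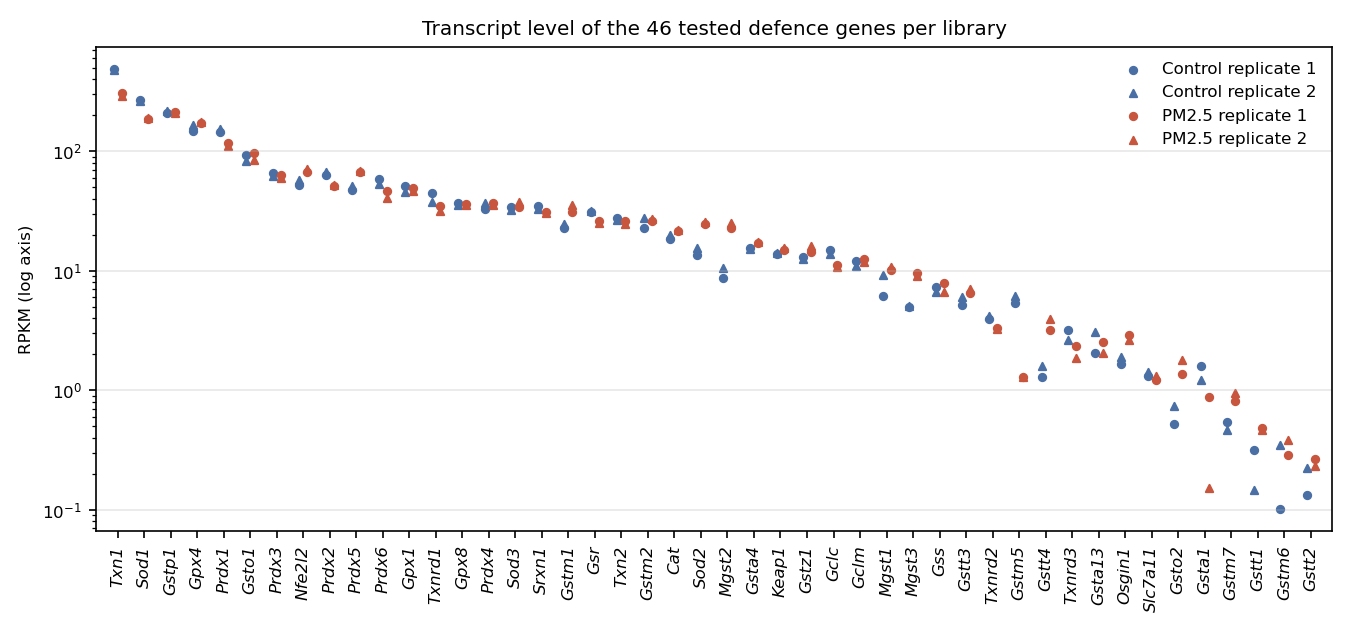
RPKM (log axis) of the 46 tested members in each of the 4 libraries, ordered by their mean; blue is control, red PM2.5, circles replicate 1 and triangles replicate 2. Levels run from 486 RPKM for Txn1 in control replicate 1 to 0.102 for Gstm6 in the same library. Replicates mostly lie close together, with wider gaps among the lowest genes and between the Mgst1 controls (6.10 and 9.17 RPKM).

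The regulators of the pathway were Nfe2l2, which encodes NRF2, its inhibitor Keap1, and Osgin1, an NRF2 target named for its induction by oxidative stress. Of these 3, 2 rose and 0 fell, against 19.2% higher and 20.4% lower over all genes. Nfe2l2 (ENSMUSG00000015839, chr2:75505857-75534985, minus strand, GRCm39) had 156 and 172 CPM in the controls and 196 and 208 CPM after PM2.5. Both PM2.5 libraries lay above both controls, and the log2 fold change was 0.30 (SE 0.0633, adjusted p = 0.00396). Osgin1 (ENSMUSG00000074063) had 4.47 and 5.16 CPM in the controls and 7.76 and 7.01 CPM after PM2.5, again without overlap. Its rise of 0.61 on the log2 scale (SE 0.159, adjusted p = 0.0123) missed the threshold by DESeq2 (adjusted p = 0.0614) and without PM2.5 replicate 1 (0.53, adjusted p = 0.0809), so that 1 of the 3 regulators was then called. Keap1 had 74.7 and 76.1 CPM in the controls and 79.0 and 83.0 CPM after PM2.5 and was not called (0.10, adjusted p = 0.211).

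Glutathione synthesis and reduction held 5 members, of which 0 rose and 2 fell, against 19.2% higher and 20.4% lower over all genes. Gclc, the catalytic subunit of the rate-limiting glutamate-cysteine ligase (ENSMUSG00000032350, chr9:77661817-77701767, plus strand, GRCm39), had 61.5 and 56.6 CPM in the controls and 45.6 and 43.7 CPM after PM2.5. Both PM2.5 libraries lay below both controls, and the log2 fold change was -0.40 (SE 0.0719, adjusted p = 0.0015). Its modifier subunit Gclm, with the core shown above, had 85.3 and 77.7 CPM in the controls and 87.6 and 82.7 CPM after PM2.5. These groups overlapped and Gclm was not called (0.07, adjusted p = 0.476). Gsr, the reductase that regenerates reduced glutathione (ENSMUSG00000031584), had 100.2 and 101 CPM in the controls and 82.1 and 79.6 CPM after PM2.5, without overlap. It fell by 0.31 on the log2 scale (SE 0.0585, adjusted p = 0.00188). In the other deposited count of total gene reads, 36.2% of the Gsr reads in the controls and 38.3% after PM2.5 lay outside the raw count. Slc7a11, the cystine importer, had 15.7 and 16.9 CPM against 14.3 and 15.4 CPM (-0.14, adjusted p = 0.315). Gss, glutathione synthetase, had 23.7 and 21.3 CPM against 25 and 21 CPM (0.04, adjusted p = 0.79). Neither was called.

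The thioredoxin system held 6 members, of which 0 rose and 4 fell, with a median log2 fold change of -0.33. Over all genes tested 19.2% were higher and 20.4% lower. By DESeq2 2 of the 6 were lower, against 15.5% of all genes. The group was not tested as a set. Txn1 (ENSMUSG00000028367, chr4:57943373-57956411, minus strand, GRCm39) had 615 and 606 CPM in the controls and 383 and 362 CPM after PM2.5. Controls and PM2.5 libraries were far apart compared with their replicates, and the level was 1.64-fold lower (log2 fold change -0.71, SE 0.0559, adjusted p = 9.151e-06). The genes around it were lower as well, with a median log2 fold change of -0.56 over 50 neighbours, and measured against them Txn1 differed by -0.16 and was not called (adjusted p = 0.0508). Near-identical pseudogenes of Txn1 can share its reads.

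The reductases that recharge thioredoxin are the cytosolic Txnrd1, the mitochondrial Txnrd2 and Txnrd3. Txnrd1 (ENSMUSG00000020250, chr10:82669785-82733546, plus strand, GRCm39) had 220.3 and 184 CPM in the controls and 169 and 153 CPM after PM2.5. The groups did not overlap, but the controls differed from each other by more than the higher PM2.5 library differed from the lower control. Its log2 fold change was -0.33 (SE 0.0836, adjusted p = 0.0109), -0.26 without PM2.5 replicate 2 (adjusted p = 0.0627) and -0.19 without control replicate 1 (adjusted p = 0.0423). Txnrd2 had 19.4 and 20.2 CPM against 15.9 and 15.5 CPM (-0.34, SE 0.0969, adjusted p = 0.0181). This call was lost by DESeq2 (adjusted p = 0.0901) and on leaving out control replicate 2 (0.0561) or either PM2.5 library (0.0626 for replicate 1 and 0.0954 for replicate 2), and against its neighbours, whose median was -0.29, Txnrd2 differed by -0.05 (adjusted p = 0.717). Txnrd3 had 10.9 and 9.0 CPM against 7.85 and 6.27 CPM (-0.47, SE 0.159, adjusted p = 0.036), and kept its call in 8 of 17 alternative analyses. Without control replicate 1 its adjusted p was 0.141 and without PM2.5 replicate 2 it was 0.217. In the absence of PM2.5 replicate 2 only 1 of the 6 genes, Txn1, was called lower.

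The mitochondrial thioredoxin Txn2 had 140.1 and 133 CPM in the controls and 131 and 123 CPM after PM2.5 and was not called (-0.10, adjusted p = 0.205). Measured against its neighbours, whose median was 0.18, it was lower by -0.29 on the log2 scale (adjusted p = 0.00483). Srxn1, the sulfiredoxin that repairs over-oxidised peroxiredoxins, had 117 and 111 CPM against 104 and 101 CPM. Its groups did not overlap, and its log2 fold change of -0.15 missed the threshold (SE 0.0588, adjusted p = 0.06). It passed without control replicate 2 (-0.19, adjusted p = 0.0357) and against its neighbours (-0.25, adjusted p = 0.0081).

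Among the superoxide dismutases and catalase, Sod1 fell and Sod2 rose. Sod1, the cytosolic copper and zinc enzyme (ENSMUSG00000022982, chr16:90017642-90023217, plus strand, GRCm39), had 205 and 200.3 CPM in the controls and 142 and 142 CPM after PM2.5. It was 1.42-fold lower, with replicates almost equal within each group (-0.51, SE 0.054, adjusted p = 5.499e-05). Sod2, the mitochondrial manganese enzyme (ENSMUSG00000006818, chr17:13225733-13258950, plus strand, GRCm39), had 154 and 177 CPM in the controls and 277 and 283 CPM after PM2.5. It was 1.69-fold higher and its groups lay well apart (0.76, SE 0.0687, adjusted p = 2.149e-05). The neighbours of both genes had the same median, -0.14, and against them the differences were -0.37 for Sod1 and 0.90 for Sod2, both still called. Sod3, the secreted dismutase, had 154 and 144 CPM against 152 and 166 CPM, with overlapping groups (0.10, adjusted p = 0.244). Cat, the peroxisomal catalase, had 58.3 and 62.2 CPM against 66.7 and 67.1 CPM (0.15, adjusted p = 0.0952), and it was called with library size only (0.21, adjusted p = 0.0276) and with upper quartile scaling (0.19, adjusted p = 0.0402).

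Among the 6 peroxiredoxins 1 rose and 3 fell, against 19.2% higher and 20.4% lower over all genes. Prdx1, an abundant cytosolic peroxiredoxin (ENSMUSG00000028691, chr4:116542741-116558019, plus strand, GRCm39), had 462 and 492 CPM in the controls and 373 and 349 CPM after PM2.5. Prdx2, also cytosolic (ENSMUSG00000005161), had 152 and 161 CPM against 120.3 and 124 CPM. Prdx6, which uses glutathione in place of thioredoxin (ENSMUSG00000026701), had 176 and 159.5 CPM against 137 and 120.2 CPM. In all 3 genes both PM2.5 libraries lay below both controls. Prdx1 fell by 0.40 (SE 0.0596, adjusted p = 0.000481), Prdx2 fell by 0.36 (SE 0.0583, adjusted p = 0.000812) and Prdx6 fell by 0.38 on the log2 scale (SE 0.075, adjusted p = 0.00257). The Prdx2 neighbours had a median of -0.29, and against them Prdx2 differed by -0.07 and was not called (adjusted p = 0.382).

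Prdx5, found in mitochondria, peroxisomes and cytosol (ENSMUSG00000024953, chr19:6884065-6887474, minus strand, GRCm39), was the peroxiredoxin that rose. It had 82.8 and 88.1 CPM in the controls and 115 and 117 CPM after PM2.5, without overlap, and was 1.35-fold higher (0.43, SE 0.0601, adjusted p = 0.000303). Its neighbours had a median of 0.21, and against them the difference was 0.23 (adjusted p = 0.0145). Prdx3, the other mitochondrial member, had 117 and 109 CPM against 109.8 and 104 CPM (-0.08, adjusted p = 0.332), and was lower against its neighbours by -0.22 (adjusted p = 0.0208). Prdx4, of the endoplasmic reticulum, had 56.7 and 63.1 CPM against 62.3 and 60.4 CPM (0.03, adjusted p = 0.748). Reads of processed pseudogenes may be mixed with those of the peroxiredoxins.

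Of the 8 glutathione peroxidases, 3 were expressed enough to test and 0 were called in either direction. Over all genes 19.2% were higher and 20.4% lower. Gpx4, which reduces lipid peroxides in membranes (ENSMUSG00000075706), had 224 and 251 CPM in the controls and 261 and 263 CPM after PM2.5. Both PM2.5 libraries lay above both controls, but the log2 fold change of 0.14 missed the threshold (SE 0.0632, adjusted p = 0.0946). It passed without control replicate 2 (0.22, adjusted p = 0.00966), with library size only (0.21, adjusted p = 0.026), with upper quartile scaling (0.19, adjusted p = 0.0387) and against its neighbours (0.32, adjusted p = 0.00337), whereas without control replicate 1 the value was 0.06 (adjusted p = 0.465). Gpx1, the main cytosolic enzyme, had 66.4 and 59.1 CPM against 62.9 and 58.2 CPM (-0.05, adjusted p = 0.66). Gpx8, of the endoplasmic reticulum, had 46.5 and 44.7 CPM against 45.0 and 44.0 CPM (-0.03, adjusted p = 0.721). Gpx2, Gpx6 and Gpx7 had 0 counts in every library, at most 0.158 CPM by the floor of 3 counts in a library. Gpx3 had 1 count in the controls together and 2 after PM2.5, and Gpx5 had 1 count in all.

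The soluble glutathione transferases, which couple glutathione to reactive chemicals, were the most varied group. Of 24 genes 16 were tested, 4 rose and 1 fell, with a median log2 fold change of 0.23. Over all genes 19.2% were higher and 20.4% lower. Gstm5, a mu class transferase (ENSMUSG00000004032, chr3:107803137-107806002, plus strand, GRCm39), showed the largest change among the members tested over all 4 libraries. It had 156 and 245 counts in the controls and 40 and 37 after PM2.5, that is 8.20 and 9.50 CPM against 1.94 and 1.95 CPM. It was 4.58-fold lower (log2 fold change -2.19, SE 0.189, adjusted p = 1.639e-05), and with its neighbours at 0.08 the positional comparison gave -2.27. Gstm1, located towards the other end of the same gene cluster of 149 kb (ENSMUSG00000058135), had 38.2 and 41.4 CPM in the controls and 51.5 and 58.1 CPM after PM2.5. It rose by 0.46 on the log2 scale (SE 0.0811, adjusted p = 0.00139), so Gstm1 and Gstm5 went opposite ways.

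The rest of the mu cluster, whose genes are close in sequence and may share reads, did not pass. Gstm2 had 32.8 and 39.4 CPM against 36.9 and 38.4 CPM (0.05, adjusted p = 0.686). Gstm7 had 1.05 and 0.892 CPM against 1.55 and 1.79 CPM, without overlap (0.79, adjusted p = 0.0642), and passed with library size only (0.85, adjusted p = 0.0494). It also passed on the log2(RPKM + 0.1) scale (0.70, adjusted p = 0.0211) and on the log2(RPKM + 1) scale (0.32, 0.0172). By DESeq2 Gstm7 did not pass (0.78, adjusted p = 0.297). Gstm6 rested on 17 and 20 counts in the groups (0.41, adjusted p = 0.61), Gstm3 had 7 and 3 counts and was not tested, and Gstm4 had 0.

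A theta and an omega class gene gave 2 of the 4 rises, both at low levels. Gstt4, of the theta class (ENSMUSG00000009093, chr10:75650777-75658377, minus strand, GRCm39), had 1.53 and 1.90 CPM in the controls and 3.73 and 4.64 CPM after PM2.5. It was 2.39-fold higher without overlap (1.26, SE 0.235, adjusted p = 0.00193). Gsto2, of the omega class (ENSMUSG00000025069, chr19:47853973-47874763, plus strand, GRCm39), had 1.10 and 1.55 CPM against 2.81 and 3.69 CPM. It was 2.37-fold higher (1.25, SE 0.274, adjusted p = 0.00481), and the change on the log2(RPKM + 1) scale was 0.65. Of its total gene reads, 59.9% in the controls and 66.4% after PM2.5 lay outside the raw count. Gsto2 starts just past the end of Gsto1 on the same strand, so reads running on from Gsto1 could not be told apart from its own. Gsto1 itself, far more abundant, had 134 and 121 CPM against 137 and 120.4 CPM and overlapping groups (0.02, adjusted p = 0.881).

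Of the other theta genes, Gstt3 had 16 and 18.6 CPM against 19.8 and 21.3 CPM (0.24, adjusted p = 0.0976), and it passed without control replicate 2 (0.35, adjusted p = 0.0344) and with library size only (0.30, adjusted p = 0.0485). With control replicate 1 left out Gstt3 stood at 0.14 (adjusted p = 0.369). Gstt1, with 18 and 34 counts in the groups, stood at 1.08 on the log2 scale and did not pass (adjusted p = 0.0912). Gstt1 did pass on total gene reads (1.60, adjusted p = 0.0061) and on the log2(RPKM + 1) scale (0.26, adjusted p = 0.0478). Gstt2, with 23 and 27 counts, stood at 0.41 (adjusted p = 0.507). Either value depended on the control library left out: Gstt1 stood at 1.64 without control replicate 1 and 0.56 without control replicate 2, and Gstt2 at 0.13 and 0.87. Gstz1, which also acts in tyrosine breakdown (ENSMUSG00000021033), had 33.6 and 32.3 CPM in the controls and 36.3 and 40.8 CPM after PM2.5, without overlap. Its call was marginal (0.23, SE 0.083, adjusted p = 0.0482) and was lost in 8 of 17 alternative analyses. Among these, the adjusted p was 0.0575 without control replicate 1 and 0.14 without control replicate 2, while with PM2.5 replicate 2 left out the estimate was 0.14 (adjusted p = 0.381).

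Alpha and pi class genes were not called. Gsta1 had 32 and 33 counts in the controls and 19 and 3 after PM2.5, so the PM2.5 replicates differed more from each other than the higher one did from the nearer control. Its log2 fold change was -1.38 (SE 0.509, adjusted p = 0.0522), -3.16 without PM2.5 replicate 1 (adjusted p = 0.00495), -0.66 without PM2.5 replicate 2 and -1.60 without control replicate 2 (adjusted p = 0.0408). Gsta1 also passed by limma-voom (-1.78, adjusted p = 0.0339), with the replicate block (-1.46, 0.0137), on total gene reads (-1.51, 0.0356) and on the log2(RPKM + 1) scale (-0.70, 0.0455). By DESeq2 it did not (-1.44, adjusted p = 0.125). Gsta4, which removes products of lipid peroxidation, had 23.6 and 23.2 CPM against 25.5 and 25.8 CPM, without overlap (0.13, adjusted p = 0.233). Gsta13 had 2.16 and 3.26 CPM against 2.62 and 2.11 CPM, with overlap (-0.23, adjusted p = 0.524). Gstp1, the most abundant transferase, had 223 and 234 CPM against 225 and 219.9 CPM with overlap (-0.04, adjusted p = 0.59), and was lower against its neighbours, whose median was 0.22, by -0.26 (adjusted p = 0.00537). Not tested for low counts were Gsta2 with 10 counts in each group, Gsta3 with 0 and 3, Gsta5 with 0 and 2, Gstp2 with 8 and 18 and Gstp3 with 5 and 11. Gstk1 had 0 in all libraries. The alpha genes resemble each other closely, as do the pi genes, so their reads may be split between copies.

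The microsomal transferases sit in membranes of the endoplasmic reticulum and mitochondria. Of the 3, 2 rose and 0 fell, with a median log2 fold change of 0.86, against 19.2% higher and 20.4% lower over all genes. Mgst2 (ENSMUSG00000074604, chr3:51567781-51590098, plus strand, GRCm39), which can also join glutathione to leukotriene precursors, had 6.26 and 7.60 CPM in the controls and 16.2 and 18 CPM after PM2.5. It was 2.43-fold higher with groups far apart (1.28, SE 0.132, adjusted p = 4.648e-05). Mgst3 (ENSMUSG00000026688, chr1:167199535-167221410, minus strand, GRCm39) had 6.52 and 6.71 CPM against 12.4 and 11.6 CPM. It was 1.81-fold higher (0.86, SE 0.128, adjusted p = 0.000496). Mgst1, with the core shown above, had 14.8 and 22.2 CPM in the controls and 24.1 and 25.6 CPM after PM2.5. Its control replicates were far apart, and its log2 fold change of 0.40 missed the threshold (adjusted p = 0.0553), while without control replicate 2 it was 0.74 (adjusted p = 0.000155) and without control replicate 1 it was 0.16 (adjusted p = 0.269). Mgst1 also passed with library size only (0.46, adjusted p = 0.0353) and with upper quartile scaling (0.45, adjusted p = 0.0417). It passed as well by limma-voom (0.41, adjusted p = 0.0487), with the replicate block (0.43, 0.00436) and, just below the threshold, with the stricter filter (0.41). By DESeq2 it did not (0.42, adjusted p = 0.0628).

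**Figure D3:**
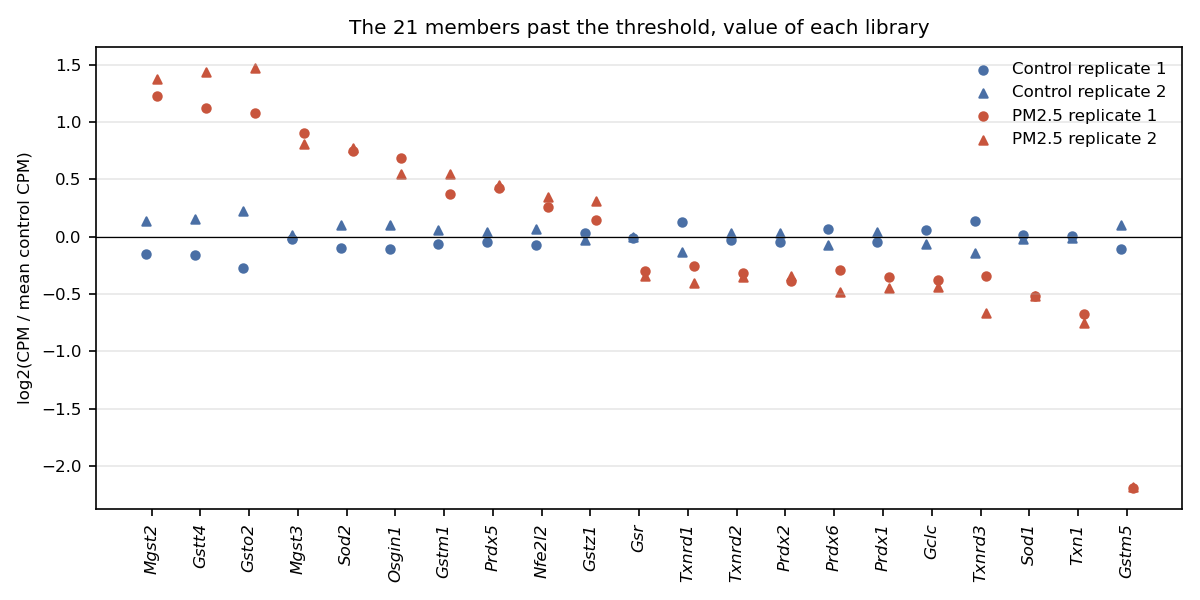
Level of each library as log2 of its CPM over the mean control CPM (vertical axis) for the 21 members called; blue is control, red PM2.5, circles replicate 1 and triangles replicate 2. In every one of the 21 genes the PM2.5 libraries lie on 1 side of both controls. This is no separate support, since the genes were called from these same values. Keap1, Cat and Gpx4, which were not called, separate likewise. Gstm5 lies lowest and Gsto2, Gstt4 and Mgst2 highest.

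Some members lie in chromosome stretches whose genes shifted together, so each was set against the median log2 fold change of up to 25 tested genes on either side. The neighbours' median was below -0.1 for 8 members, of which 2 were higher and 5 lower, and above 0.1 for 11 members, of which 3 were higher and 0 lower. The 27 members with a neighbourhood between -0.1 and 0.1 held 5 higher and 6 lower genes. Shares of all genes called in such stretches were not computed, so these counts cannot be read as a trait of the members. Tested against their neighbours, 10 members were again higher and 11 lower, where 16.2% of all genes were called in each direction, but they were not all the same members. Txn1, Txnrd2, Txnrd3, Prdx2 and Gstz1 were no longer called, while Txn2, Srxn1, Prdx3 and Gstp1 were called lower and Gpx4 higher. In Txn1, Txnrd2 and Prdx2 most of the difference was shared with the neighbours. What shifts the stretches was not tested.

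**Figure D4:**
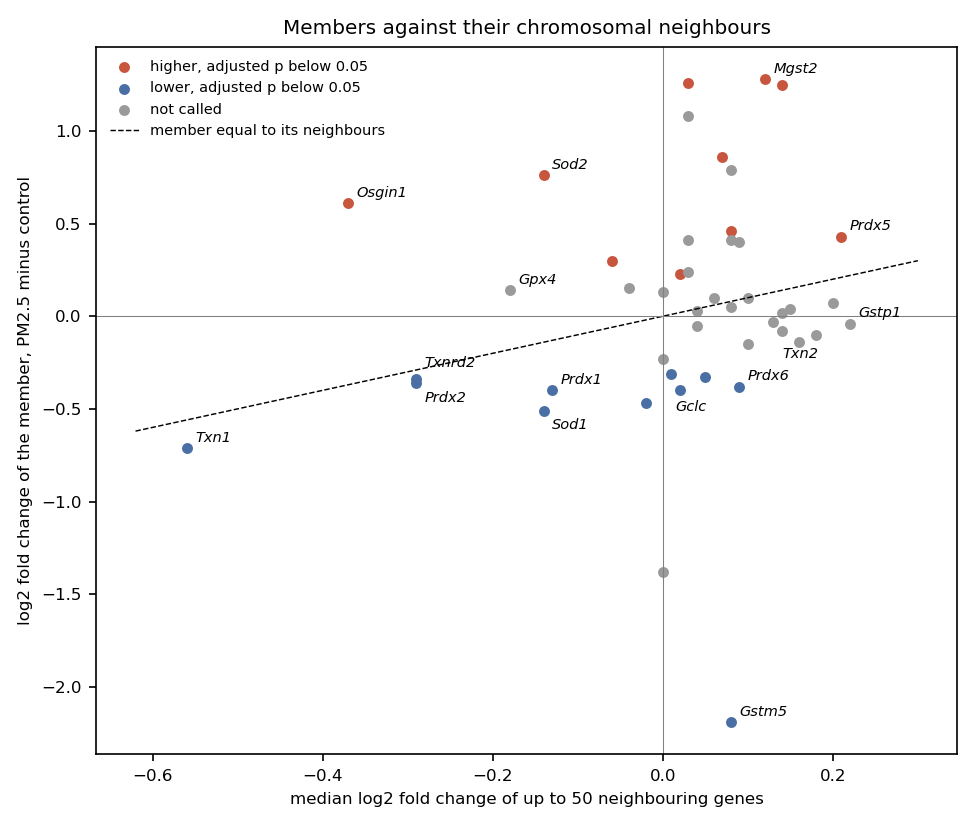
Log2 fold change of each of the 46 tested members (vertical axis) against the median log2 fold change of its tested neighbours on the chromosome (horizontal axis); the dashed line marks a member that moved exactly as its neighbours. Txn1 (-0.71 with neighbours at -0.56), Prdx2 and Txnrd2 lie near the line, while Sod2, Osgin1, Mgst2 and Gstm5 lie far from it.

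The antioxidant core was found in 4 of 10 windows of members that fell (40%), those of Txnrd1, Prdx1, Sod1 and Gstm5, in 1 of 13 windows of members that rose (7.69%), that of Nfe2l2, and in 4 of 29 windows of members not called (13.8%). These shares are a description of few windows and were not tested. The 10 windows of members that fell cover 8 genes, since Gclc, Gsr and Prdx6 had no entry. The 13 windows of members that rose cover 10 genes. Relative to the start it lay at -240 in Nfe2l2, -134 in Gclm, -133 in Prdx1, -92 in Txnrd1, -56 in Sod1 and Mgst1 and -42 in Gstm5. The other matches were at -129 in Gstm7, at -121 in Gsta3 and in Srxn1, the only one of these with the core after the start. The core of Prdx1 overlaps a match to the AP-1 site, TGANTCA, which was found in 7 of the 65 windows (10.8%) against 7.81% of all windows. The xenobiotic response element core GCGTG, bound by the aryl hydrocarbon receptor, was found in 28 of the 65 (43.1%) against 32.4%. It was in 8 of 10 windows of members that fell (80%), 6 of 13 of those that rose (46.2%) and 11 of 29 of those not called (37.9%). By gene these were 6 of 8, 5 of 10 and 9 of 21, and the difference was not tested. The xenobiotic core overlaps the antioxidant core in Sod1 and Gstm5.

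The partners of NRF2, among them the small MAF proteins, the BACH competitors and factors that degrade it, gave 1 higher and 3 lower of 11 tested of 13, with a median log2 fold change of -0.17. Over all genes tested 19.2% were higher and 20.4% lower. The counts of this list and of those that follow stand beside these shares, and no list was tested as a set. Gsk3b, a kinase that favours NRF2 degradation, had 173 and 180.1 CPM in the controls and 142 and 150.4 CPM after PM2.5 (-0.27, adjusted p = 0.00382). Sqstm1, the autophagy receptor that captures KEAP1, had 323 and 331 CPM against 289 and 269 CPM (-0.23, adjusted p = 0.00937), and was not called without PM2.5 replicate 2 (-0.18, adjusted p = 0.133). Mafg, a small MAF, had 116 and 127 CPM against 102 and 107 CPM (-0.22, adjusted p = 0.0199), and Btrc, a ubiquitin ligase adaptor, had 24.5 and 22.8 CPM against 28.3 and 30.5 CPM (0.32, adjusted p = 0.0159). Mafg was not called when control replicate 2 (adjusted p = 0.0869) or the PM2.5 library of replicate 1 (0.131) was left out, with library size only (0.0772), with upper quartile scaling (0.0514) or on either log2 RPKM scale (0.0672 and 0.0723), nor Btrc without control replicate 2 (0.0693) or PM2.5 replicate 2 (0.129) or by DESeq2 (0.0658). Against their neighbours none of the 4 passed, with adjusted p-values of 0.598 for Gsk3b, 0.103 for Sqstm1, 0.609 for Mafg and 0.158 for Btrc.

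Among 22 other genes described as NRF2 targets, all tested, 8 were higher and 4 lower, against 19.2% and 20.4% of all genes. Their median was -0.06. Aldh3a1, an aldehyde dehydrogenase, had 27.6 and 24.3 CPM in the controls and 177 and 189 CPM after PM2.5, a rise of 2.83 on the log2 scale (adjusted p = 4.853e-09). Nqo1, the quinone reductase, had 29.9 and 29.2 CPM against 50.2 and 54.1 CPM (0.82, adjusted p = 2.281e-05), and Fth1, the ferritin heavy chain, had 4276 and 4622 CPM against 7507 and 8014 CPM (0.80, adjusted p = 2.742e-05). Tmem176a had 105 and 116 CPM against 214 and 217 CPM (0.96, adjusted p = 2.734e-06). In all 4, which the naming rule took for their small p-values, both PM2.5 libraries lay above both controls. The 4 lower genes were Abcc1 (-0.43), Akr1b8 (-0.37), Blvrb (-0.30) and Hmox1, all named after their values were seen. Abcc1 was not called against its neighbours (-0.10, adjusted p = 0.198), nor Blvrb by DESeq2 (adjusted p = 0.08), with library size only (0.0585) or without control replicate 2 (0.0796) or PM2.5 replicate 2 (0.152). Hmox1, the inducible haem oxygenase, was lower, with 82.4 and 78.8 CPM against 72.9 and 67.0 CPM (-0.20, adjusted p = 0.0324). That call was lost without PM2.5 replicate 2 (-0.15, adjusted p = 0.26), without control replicate 1 (adjusted p = 0.0905), by DESeq2 (0.0857), with library size only (0.109), with upper quartile scaling (0.0751) and on the log2(RPKM + 1) scale (0.0536). The lower genes of this list numbered 2 without PM2.5 replicate 2, with library size only and by DESeq2.

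NADPH, the electron source of both reductases, was covered by 20 genes, of which 3 were higher and 6 lower (median -0.08), against 19.2% and 20.4% of all genes. The higher genes numbered 1 without control replicate 1. In the main test the 3 higher genes were Aldh1l1 (1.85, adjusted p = 0.00118), Me3 (0.53, 0.0158) and Mthfd2l (0.28, 0.0314), named after their values were seen. By DESeq2 Me3 and Mthfd2l were not called (adjusted p = 0.0794 and 0.107). The 4 genes with the smallest p-values were all lower. Nadk2, the mitochondrial NAD kinase, had 52.7 and 51.0 CPM against 31.7 and 31.2 CPM (-0.72, adjusted p = 3.757e-05), and Aldh1l2, of the folate pathway, had 44.1 and 50.7 CPM against 28.9 and 31.9 CPM (-0.64, adjusted p = 0.000319). Mthfd2, also of the folate pathway, had 59.6 and 54.7 CPM against 41.2 and 41.1 CPM (-0.47, adjusted p = 0.000578), and Me2, a malic enzyme, had 92.2 and 88.2 CPM against 70.3 and 69.1 CPM (-0.37, adjusted p = 0.000919). In each of the 4 both PM2.5 libraries lay below both controls.

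Genes for glutathione precursors and breakdown gave 2 higher and 4 lower of 14 tested of 20 (median -0.18), against 19.2% and 20.4% of all genes. Cth, which makes cysteine from cystathionine, had 5.05 and 5.04 CPM in the controls and 1.5 and 1.42 CPM after PM2.5 (-1.78, SE 0.216, adjusted p = 0.000134). This change was larger than that of any member of the glutathione synthesis group. The 2 higher genes, named after their values were seen, were Ggt6 and Cndp2. Ggt6 rested on 16 counts in the controls and 53 after PM2.5 (1.89, adjusted p = 0.00749). Cndp2 rose by 0.21 on the log2 scale (adjusted p = 0.04) and was not called by DESeq2 (adjusted p = 0.168). Lap3, a leucine aminopeptidase, had 105 and 98.9 CPM against 75.7 and 72.4 CPM (-0.46, adjusted p = 0.000275), and Slc1a5, a glutamine carrier, had 106 and 95.8 CPM against 83.5 and 79.7 CPM (-0.30, adjusted p = 0.00517). Ggct, which splits gamma-glutamyl peptides, had 5.0 and 4.81 CPM against 3.30 and 2.53 CPM (-0.74, adjusted p = 0.0136) and was not called by DESeq2 (adjusted p = 0.0683) or without PM2.5 replicate 2 (-0.57, adjusted p = 0.112). The count of 2 higher genes fell to 1 without control replicate 1, control replicate 2 or PM2.5 replicate 2 and to 0 without PM2.5 replicate 1.

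Glutaredoxins, other thioredoxin-fold proteins and thiol repair genes gave 4 higher and 11 lower of 30 tested of 31 (median -0.06), with 6 lower without PM2.5 replicate 2 and 5 lower against their neighbours. Of all genes tested 19.2% were higher and 20.4% lower, and 16.2% in each direction against their neighbours. Txnip, which binds and inhibits thioredoxin, had 43.9 and 57.6 CPM in the controls and 107 and 113 CPM after PM2.5 (1.11, SE 0.104, adjusted p = 2.524e-05), opposite in direction to Txn1. Sesn3, a sestrin, had 48.7 and 58.4 CPM against 99.3 and 113 CPM (0.98, adjusted p = 2.416e-05). Glrx, a cytosolic glutaredoxin, had 36.1 and 41.6 CPM against 54.9 and 63.9 CPM (0.61, adjusted p = 0.00059), and rose less against its neighbours (0.40, adjusted p = 0.00845). Txnl4a, a thioredoxin-fold protein of the spliceosome, had 63.5 and 60.3 CPM against 42.9 and 45.0 CPM (-0.49, adjusted p = 0.00033).

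The thioredoxin reductases and several glutathione peroxidases contain selenium. Of 21 tested of 23 further selenoprotein and selenium insertion genes 5 were higher and 2 lower (median 0.09), against 19.2% and 20.4% of all genes. Selenop, the secreted selenium carrier, had 26.1 and 30.9 CPM in the controls and 46.4 and 46.3 CPM after PM2.5 (0.69, adjusted p = 0.000178). Secisbp2l had 178 and 189 CPM against 265 and 281 CPM (0.57, adjusted p = 4.509e-05), and Selenos, of the endoplasmic reticulum, had 39.9 and 40.0 CPM against 50.8 and 53.6 CPM (0.39, adjusted p = 0.00161). Sephs1 had 121 and 117 CPM against 98.2 and 94.8 CPM (-0.30, adjusted p = 0.00226), and against its neighbours it was not called (-0.04, adjusted p = 0.632). Lower genes numbered 1 without control replicate 1 or PM2.5 replicate 1. All 3 thioredoxin reductases were called lower, but Txnrd2 and Txnrd3 were not by DESeq2 (adjusted p = 0.0901 and 0.101). Gpx1 and Gpx4 were not called, though Gpx4 passed with library size only (adjusted p = 0.026) and against its neighbours (0.00337). This contrast between reductases and peroxidases was not tested.

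Genes that produce superoxide or peroxide gave 6 higher and 2 lower of 13 tested of 25 (median 0.33), against 19.2% and 20.4% of all genes. Ncf4, a cytosolic subunit of the phagocyte NADPH oxidase, had 1.37 and 2.17 CPM in the controls and 14.8 and 16.7 CPM after PM2.5 (3.10, SE 0.189, adjusted p = 1.722e-06). Ncf4 is also a leukocyte gene, and the immune marker Cd68 moved with it, from 3.63 and 4.23 CPM to 9.02 and 10.3 CPM, with Ptprc at no more than 0.158 CPM in any library. Ero1b, an oxidase of the endoplasmic reticulum, had 8.20 and 9.77 CPM against 13.8 and 13.4 CPM (0.58, adjusted p = 0.00457), and Acox3, a peroxisomal oxidase, had 17.5 and 20.2 CPM against 25.4 and 25.5 CPM (0.43, adjusted p = 0.0058). Poldip2 had 126 and 125 CPM against 107 and 106 CPM (-0.24, adjusted p = 0.0071), and was not called without PM2.5 replicate 2 (adjusted p = 0.0616) or against its neighbours (0.289). Without PM2.5 replicate 2 the lower genes of this list numbered 0, and without control replicate 1 they numbered 1.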

How the data were processed

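For 4 libraries the authors deposited raw counts of each gene, not normalized, on GRCm39 per the submitters' processing notes. RPKM values, scaled to gene length and library size, were deposited by the authors beside them, and a further count named total gene reads was deposited without a definition. Aligner, counter, annotation release and use of strand: not given in the sources used here. Samples were grouped by their labels. The members and gene lists were chosen with earlier results of these data known.

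All genes kept by filterByExpr (12478) were fitted in edgeR 4.0.16 (R 4.3.3) with TMM factors of 0.973, 0.984, 1.02 and 1.024, an unpaired design, the quasi-likelihood F test and Benjamini-Hochberg adjustment over all genes tested, with a threshold of 0.05. Every adjusted p is from this test unless another is named. SE is the size of the log2 fold change divided by the square root of F. Members were all accounted for. Of each list, up to 4 genes past the threshold with the smallest p and a mean of at least 1 CPM were named. The script was tested on simulated data.

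Alternatives were DESeq2 1.42.0, limma-voom (limma 3.58.1), median-ratio, upper quartile and library size scaling, no filter and a stricter one (1 CPM in 2 libraries and 50 counts), a replicate block, each library left out, total gene reads, limma-trend on RPKM as log2(RPKM + 0.1) or log2(RPKM + 1), an offset equal to the median log2 fold change of up to 25 tested neighbours on each side, with members and listed genes left out, and the legacy quasi-likelihood fit, which was chosen after seeing the data. The floor of 3 counts reflects counting error alone, and no molecular identifiers are named in the labels. Promoter windows are RefSeq's on GRCm38.p6, and motifs were searched on both strands in Python 3.11.15.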

Additional observations from a re-analysis of the deposited data

How the results depend on the processing

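The counts of 10 members higher and 11 lower stayed within 1.5 times under all 17 alternatives. Leaving out 1 library gave 9 to 12 higher and 8 to 12 lower. With the replicate number as a block, 13 were higher and 13 lower; replicates with the same number deviated together with a correlation of 0.164 across genes, and since the labels do not tie the numbers to a shared culture this stands only as a shared number. Of the 21 members called, 14 kept call and direction throughout, and Osgin1, Txn1, Txnrd1, Txnrd2, Txnrd3, Prdx2 and Gstz1 lost the call at least once. With 2 libraries left in 1 group and 1 in the other, the lone library is assumed to vary like the pair.

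The sign turned only in members that were not called. Against the neighbours it was -0.14 in Gclm, -0.11 in Gss, -0.005 in Sod3, -0.005 in Prdx4, -0.03 in Gstm2 and -0.12 in Gsto1. Without control replicate 1 it was -0.04 in Prdx4, 0.03 in Gpx1, -0.07 in Gstm2 and -0.11 in Gstm6, and without control replicate 2 it was -0.01 in Gclm, -0.04 in Gss, 0.13 in Gsta13 and -0.06 in Gsto1. Without PM2.5 replicate 1 it was -0.10 in Gss and -0.08 in Gsto1, and without PM2.5 replicate 2 it was 0.004 in Gpx1. Library size only gave 0.02 in Gpx1, 0.03 in Gpx8 and 0.02 in Gstp1, and upper quartile scaling 0.01 in Gpx8 and 0.003 in Gstp1. Total gene reads gave -0.004 in Gstm2 and no filter -0.003 in Gsto1. Over the libraries left out in turn, the extremes on the unturned side were 0.15 in Gss, 0.11 in Prdx4, -0.46 in Gsta13, 0.19 in Gstm2, 1.63 in Gstm6 and 0.10 in Gsto1. The cause was not tested. Depth limits the transferases with few counts.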
